A study of Homo sapiens with 8 samples.

Results

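The transcriptome of cells that carried a control short hairpin RNA (shCTL) was described in its 4 libraries, which are 4 of the 8 libraries of the series, and compared between the 2 tables in which they were deposited. The members are all libraries whose titles name the control. The first, called set 1 here, holds shCTL replicates 1 and 2, and the second, called set 2, holds shCTL replicates 3 and 4. Rows were matched by gene identifier. The label of all cells is KG-1a, a myeloid leukaemia cell line from human bone marrow, with the cell type given as leukaemia stem cell. They received a lentivirus and were sorted before RNA-seq, in which a kit made for small amounts of RNA copied full-length cDNA by template switching. The shCTL cells have the genotype label WT, and the other 4 libraries (shNYNRIN replicates 1 and 2 in set 1, 3 and 4 in set 2) come from cells with a hairpin against NYNRIN. The hairpin sequences, any selection, the time after transduction and the marker used for sorting are not stated in these sources.

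A control hairpin enters the same RNA interference machinery as a targeting hairpin but is designed to have no matching transcript. It therefore carries the effects of the virus, the sort and the culture, and its libraries serve as the baseline. Several well-known gene programmes follow the state of a culture: hypoxia-inducible factors switch on glycolytic enzymes when oxygen is short, the unfolded protein response raises chaperones of the endoplasmic reticulum, heat shock factor raises cytosolic chaperones, ATF4 raises amino acid synthesis when amino acids are short, and growth factor signals raise immediate early genes within minutes.

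Markers were read first, because the label names a line. CD34, a surface glycoprotein of blood progenitors by which KG-1a cells are commonly recognised, stood at 0.949, 0.933, 1 and 1.79 FPKM in shCTL replicates 1 to 4. The transcription factor ERG stood at 0.949, 0.942, 0 and 0.901 FPKM in the same order. Replicate 3 was deposited cut down to whole numbers, so its 0 for ERG stands for any value under 1 FPKM. Of 12 markers chosen for KG-1a and CD34-positive progenitors, the 10 other than CD34 and ERG had at least 12 FPKM in each library. Among them were the pan-leukocyte phosphatase PTPRC (22 to 30.7 FPKM), the sialic acid receptor CD33 (18 to 23.5 FPKM) and the myeloid transcription factor SPI1 (62 to 81 FPKM).

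Markers of platelet precursors and of red cells were mixed. Of 9 platelet precursor markers 4 had a mean of at least 10 FPKM. Among these, ITGA2B, which encodes the platelet integrin chain CD41, stood at 507 to 589 FPKM, the platelet glycoprotein gene GP9 at 130.0 to 149 FPKM and GP1BA at 60.2 to 64.9 FPKM. The platelet tubulin TUBB1 was lower, at 5 to 8.95 FPKM, as were the chemokine PPBP (0 to 2.89 FPKM) and von Willebrand factor (VWF, 2 to 2.46 FPKM). PF4 and GP1BB were listed under these names in neither set. Of 14 erythroid markers 8 had a mean of at least 10 FPKM, with the transcription factor KLF1 at 59 to 72.3 FPKM, glycophorin B (GYPB) at 45 to 60.3 FPKM and beta-globin (HBB) at 36.01 to 50.8 FPKM. The globin genes HBA1 and HBG1 were near 2 FPKM (2 to 2.58 and 1.64 to 2.05 FPKM). The other alpha- and gamma-globin genes, HBA2 and HBG2, were higher, at 14 to 20.3 and 8.49 to 15.2 FPKM. In set 2 the anion exchanger SLC4A1 reached 0.0316 FPKM and the globin chaperone AHSP was listed at 0. HDC, the histamine-synthesising enzyme of mast cells and basophils, stood at 67 to 77.7 FPKM. Among genes of other blood lineages, MPO, IRF8 and CD3E were listed at 0 in both shCTL libraries of set 2 and CD14 reached 0.0950 FPKM there. Others were present: CD4, found on T cells and monocytes, stood at 15 to 16.3 FPKM, lysozyme (LYZ) at 9.02 to 10 FPKM, the proteoglycan VCAN at 3.57 to 5.19 FPKM and lactoferrin (LTF) at 2 to 3.91 FPKM. The level of CD34 goes against the label, so the cells are called "cells labelled KG-1a". Values of shCTL replicate 3 are shown for markers as deposited, in whole numbers.

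**Figure D1:**
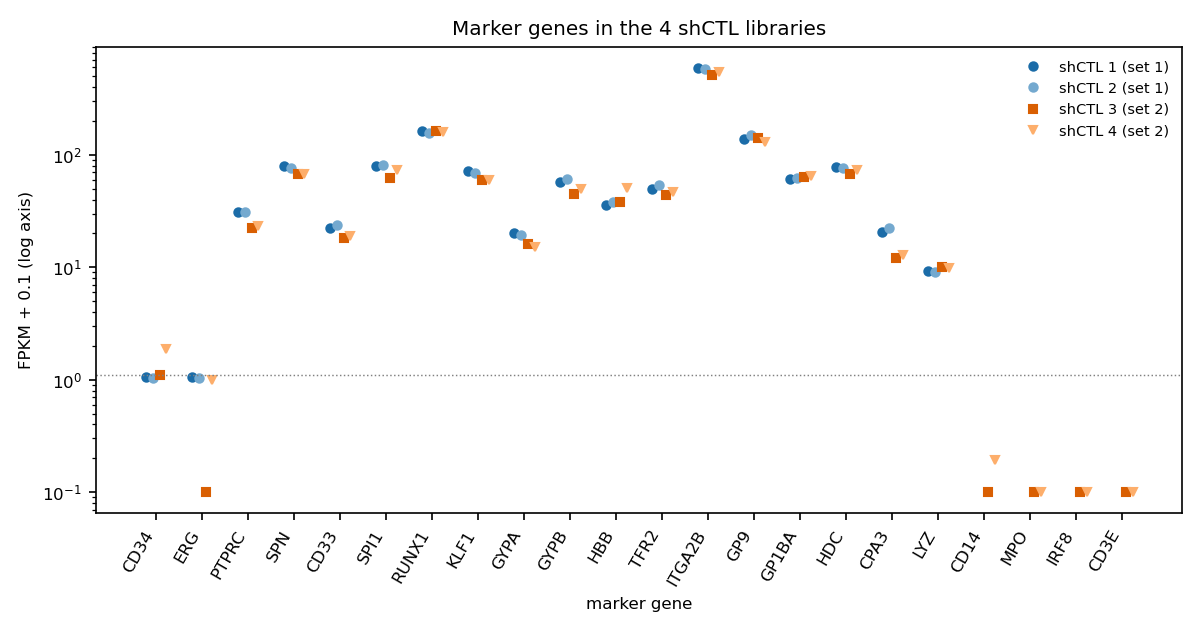
Chosen marker genes in the 4 shCTL libraries, with FPKM plus 0.1 on a log axis and 1 point per library (circles, set 1; square and triangle, set 2); the dotted line marks 1 FPKM, and genes from CD14 to CD3E are listed only in the table of set 2. CD34 lies at 0.933 to 1.79 FPKM, and ITGA2B lies between 507 and 589 FPKM.

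NYNRIN, the gene the other hairpin targets (chromosome 14, 24398786 to 24419288, plus strand, GENCODE 29 on GRCh38), stood at 12.2 and 12.5 FPKM in set 1 and 10.5 and 10.4 FPKM in set 2 in shCTL. In shNYNRIN it stood at 6.98 and 7.30 FPKM in set 1 and 2.83 and 2.84 FPKM in set 2, below each shCTL library in both tables.

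Protein synthesis genes led the baseline. By the mean over the 4 shCTL libraries, EEF1A1, RPS6, HSP90AB1, RPL41, ACTB, RPL4, RPL3, RPL8 and RPLP0 were among the 10 most abundant messages per length. The translation elongation factor EEF1A1 stood at 2481 and 2526 FPKM in set 1 and 2341.5 and 2352 FPKM in set 2, and the ribosomal protein RPS6 at 2215 and 2241 FPKM in set 1 and 2264.5 and 2178 FPKM in set 2. HSP90AB1, the constitutive cytosolic chaperone, stood at 1894 and 1878 FPKM in set 1 and 2014.5 and 2003.5 FPKM in set 2, and cytoplasmic actin (ACTB) at 1418 and 1428 FPKM in set 1 and 1459.5 and 1480.5 FPKM in set 2. The sets did not overlap for EEF1A1, HSP90AB1 and ACTB, and they overlapped for RPS6. Together the 10 most abundant genes held between 5.01% and 5.24% of all FPKM in each shCTL library, and the 100 most abundant genes held between 21.1% and 21.8%. In each shCTL library between 5821 and 5836 genes had at least 10 FPKM. No step of the deposited values gives the read depth of single libraries, so levels carry no counting interval.

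Several of these abundant messages differed between the sets by small amounts. From the levels of NYNRIN above onward, FPKM values of shCTL replicate 3 carry an added 0.5, because that library was deposited truncated to whole numbers. Changes were tested with limma and Benjamini-Hochberg adjustment over 5842 genes. They are log2 fold changes of FPKM + 1, set 2 minus set 1. This scale understates the change of low genes. EEF1A1 was lower in set 2 (-0.09, adjusted p = 0.00388), as were RPL41 (-0.14), RPL4 (-0.14), RPL3 (-0.19), RPLP0 (-0.15) and RPL8 (-0.08), while HSP90AB1 was higher (0.09). RPS6 and ACTB did not pass, at -0.0044 and 0.05. Quantile normalization, which gives the top ranks the same values in each library, set the changes of EEF1A1, HSP90AB1, RPL41 and RPL8 to 0 and that of RPL4 to 0.031. The calls of EEF1A1 and HSP90AB1 were lost without shCTL replicate 3 (log2 changes of -0.090 and 0.087) or 4 (-0.096 and 0.095), that of RPL4 without replicate 3 (-0.12), and that of RPL8 without replicate 2, 3 or 4 (-0.048, -0.083 and -0.073).

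Replicates of a set lay close together and the sets lay apart. Over the 5842 genes with a mean of at least 10 FPKM, the median absolute log2 difference was 0.043 between shCTL replicates 1 and 2 and 0.045 between replicates 3 and 4. Between shCTL libraries of different sets it was 0.111 to 0.114. At most 7 genes differed by more than 1.5-fold between shCTL replicates of a set, and 67 to 75 did between shCTL libraries of different sets. The distance between shCTL and shNYNRIN libraries of the same table was of similar size, 0.103 to 0.108 in set 1 and 0.126 to 0.127 in set 2.

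**Figure D2:**
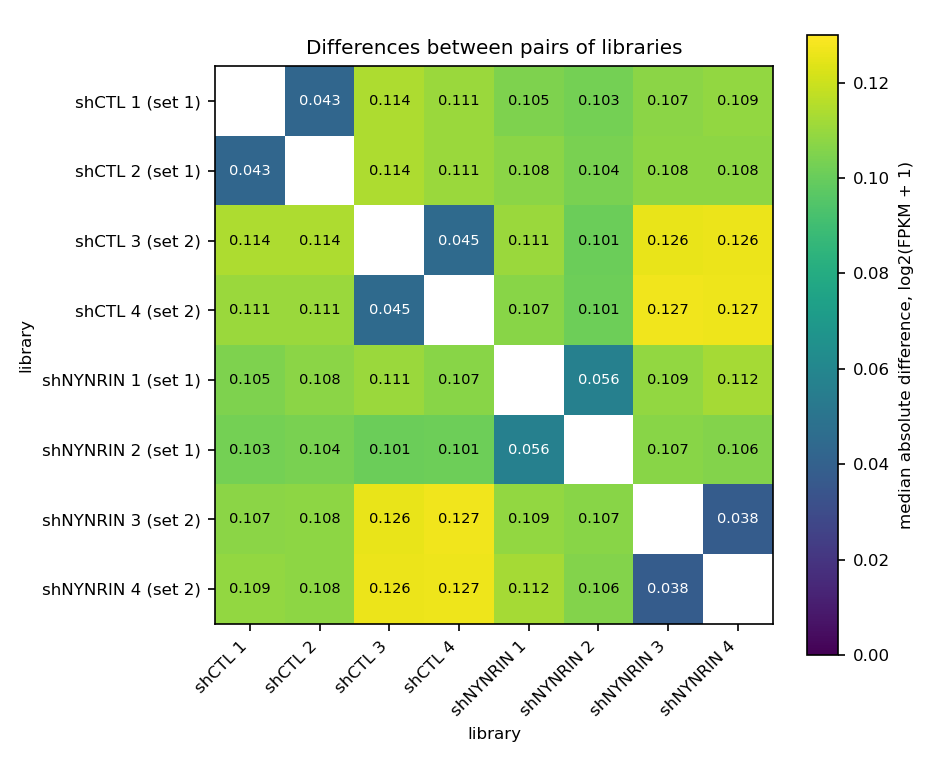
Median absolute difference of log2(FPKM + 1) over 5842 genes for each pair of the 8 libraries, both axes listing the libraries. The 4 pairs of replicates stand out at 0.038 to 0.056, and every other pair lies between 0.101 and 0.127.

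Between the shCTL sets 2452 of 5842 genes (42.0%) had an adjusted p under 0.05, 1339 higher in set 2 (22.9%) and 1113 lower (19.1%). The balance turned with median centring (1128 higher, 1255 lower) and with no 0.5 added to the whole-number library (1103 and 1120). The shCTL libraries of the sets did not overlap for 4242 genes (72.6%), of which 2338 lay higher in set 2 (40.0% of all genes), and 2977 genes had an unadjusted p under 0.05. Most of the changes were small, with a median absolute change of 0.20 among the genes that passed and 0.11 among all genes. Only 30 genes were higher by more than 1.5-fold and 29 lower, and 2787 genes (47.7%) moved by less than 0.1 on the log2 scale. The median over all genes was 0.02. Genes above 100 FPKM passed more often (31.7% higher and 32.3% lower of 504) than genes of 10 to 30 FPKM (19.6% and 15.6% of 3561).

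Set, table and library-name number change together between the shCTL groups and cannot be told apart, whether culture or library preparation changed with them is not stated, and FPKM was scaled for each library on its own. The labels do not say that replicates are separate cultures, and the p-values then reflect only how these libraries scatter, which may be technical.

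**Figure D3:**
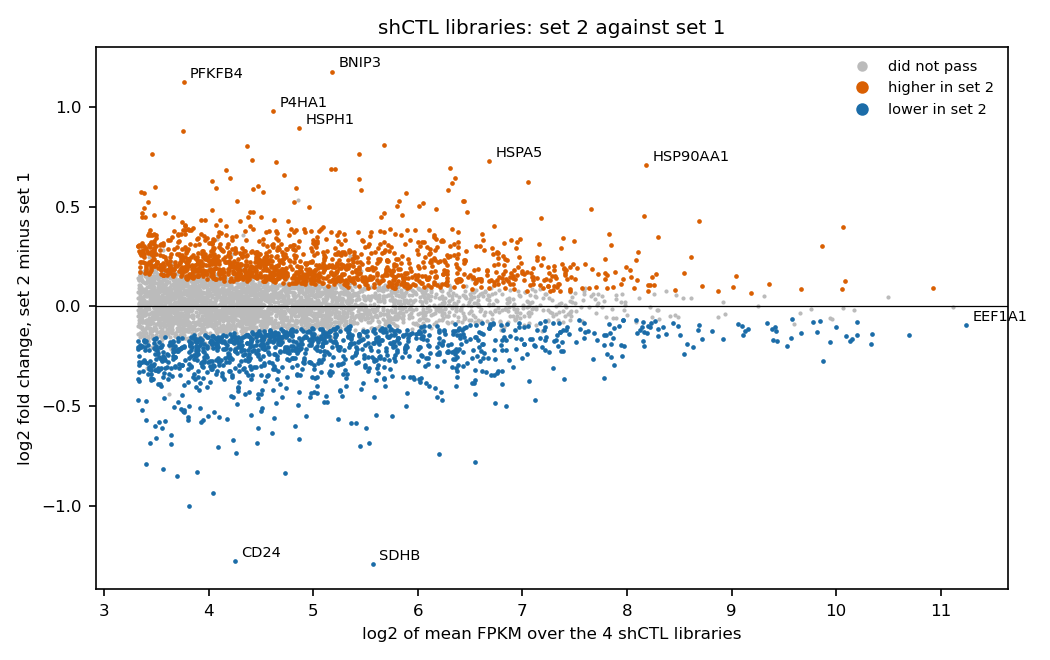
Log2 fold change of set 2 against set 1 in shCTL (vertical) against the log2 of the mean FPKM over the 4 shCTL libraries (horizontal), 1 point per gene, coloured where the limma adjusted p was under 0.05. BNIP3 and PFKFB4 lie highest, at 1.18 and 1.13, and SDHB and CD24 lowest, at -1.29 and -1.28.

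Genes of glycolysis and the hypoxia response were among the largest rises. BNIP3, a mitophagy receptor and hypoxia-inducible gene (chromosome 10, 131966455 to 131982013, minus strand, GENCODE 29 on GRCh38), stood at 22.4 and 21.2 FPKM in set 1 and 49.5 and 51.8 FPKM in set 2. Each set 2 library lay more than 2-fold above each set 1 library, a change of 1.18 (SE 0.043, adjusted p = 2.10e-06). PFKFB4, a bifunctional enzyme that sets the level of a phosphofructokinase activator (chromosome 3, 48517684 to 48562015, minus strand), stood at 8.35 and 7.94 FPKM in set 1 and 19.5 and 18.4 FPKM in set 2, a change of 1.13. P4HA1, a collagen prolyl hydroxylase subunit (chromosome 10, 73007217 to 73096974, minus strand), stood at 15.7 and 16.7 FPKM in set 1 and 33.5 and 32.3 FPKM in set 2 (0.98). The enolase gene ENO2 stood at 61.4 and 59.3 FPKM in set 1 and 99.5 and 96.9 FPKM in set 2 (0.69), and phosphoglycerate kinase (PGK1) at 129 and 126 FPKM in set 1 and 159.5 and 157 FPKM in set 2 (0.31). In none of these 5 genes did the sets overlap, which the rule for naming BNIP3, PFKFB4 and P4HA1 required and which held in this direction for 40.0% of all genes.

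Of 32 glycolysis and hypoxia genes, 24 were measured at the level tested. In set 2, 18 of the 24 were higher, 1 was lower, the muscle-type phosphofructokinase PFKM (a call lost without any 1 shCTL library), and 5 did not pass, VEGFA among them. The list had a median change of 0.25, against 0.02 over all genes and a background of 22.9% called higher. Its summed level was 4031 and 4048 FPKM in set 1 and 4856 and 4822 FPKM in set 2. The same list in the shNYNRIN libraries had 6 higher, 6 lower and a median of 0.02, where 18.6% of all genes were called higher and 20.7% lower.

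Promoter windows, 250 bases before a RefSeq start (GRCh38.p14), are described for members of this list because those genes rose together and hypoxia-inducible factors bind a short DNA core, here ACGTG or GCGTG on either strand. The BNIP3 window held 6 matches, and those of PFKFB4, P4HA1 and ENO2 held 1 each. The core is common: 57.8% of 6792 windows of tested genes hold it, and 43.2% of all 35116 windows. The part of the BNIP3 window that holds no annotated exon (chr10:131982014-131982173, minus strand) carries all 6 matches, of which 2 overlap in a palindrome. It is shown 5′ to 3′ with the cores in capitals. How often other windows hold 6 matches, or matches this close together, was not counted.
BNIP3 upstream: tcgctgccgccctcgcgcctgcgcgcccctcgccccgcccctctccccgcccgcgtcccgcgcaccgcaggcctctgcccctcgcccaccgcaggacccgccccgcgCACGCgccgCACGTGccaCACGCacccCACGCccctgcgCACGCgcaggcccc
A match is a stretch of letters and no measure of binding.

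Chaperones of the endoplasmic reticulum rose as a second group. HSPA5, the lumenal HSP70 chaperone also known as BiP (chromosome 9, 125234853 to 125241330, minus strand), stood at 76.7 and 77.3 FPKM in set 1 and 128.5 and 128 FPKM in set 2. The replicates of each set differed by less than 1 FPKM, and the change was 0.73 (SE 0.028, adjusted p = 2.10e-06). SDF2L1, a stress-induced partner of BiP, stood at 11.7 and 13.6 FPKM in set 1 and 21.5 and 18.8 FPKM in set 2 (0.63). The lumenal HSP90 (HSP90B1) rose from 62.3 ± 0.412 to 93.9 ± 2.24 FPKM (SD, n = 2 each), a change of 0.58, and the calcium-binding chaperone calreticulin (CALR) from 168 ± 1.49 to 236 ± 2.61 FPKM (SD, n = 2 each), a change of 0.49. Of 15 tested members 12 were higher and 0 lower, against 22.9% and 19.1% of all genes. The list median was 0.33. The transcription factor XBP1 was among the 12, and DNAJC3, EDEM1 and SSR1 did not pass.

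The window before the HSPA5 start (chr9:125241344-125241593, minus strand) is shown because promoters of this chaperone family are known to carry the endoplasmic reticulum stress element. The element, CCAAT followed by 9 bases and CCACG, was found once on either strand in this window, in capitals.
HSPA5 upstream: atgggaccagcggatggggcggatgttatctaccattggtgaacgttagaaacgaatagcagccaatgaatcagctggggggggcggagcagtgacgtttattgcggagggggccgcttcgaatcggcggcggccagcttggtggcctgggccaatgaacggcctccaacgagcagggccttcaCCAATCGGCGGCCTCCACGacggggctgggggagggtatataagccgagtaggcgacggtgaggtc
Only 8 of 6792 windows of tested genes hold the element (0.118%), and 26 of all 35116 windows do (0.074%). The window was chosen with the element already known for this family, so the match is no result of these data. Windows of the other chaperones of the list are not described here.

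Cytosolic chaperones were higher in set 2 for 13 of 14 tested members and lower for 0, against 22.9% and 19.1% of all genes. Their median was 0.34. HSPH1, a nucleotide exchange factor for HSP70, stood at 20.6 and 19.5 FPKM in set 1 and 39.5 and 36.9 FPKM in set 2 (0.90, adjusted p = 5.82e-06). The inducible cytosolic HSP90, HSP90AA1, stood at 218 and 221 FPKM in set 1 and 362.5 and 358 FPKM in set 2 (0.71). The HSP40 co-chaperone DNAJA1 rose from 70.5 ± 0.611 to 102 ± 2.29 FPKM (SD, n = 2 each, log2 change 0.53), and AHSA1, which activates the ATPase of HSP90, from 54.3 ± 1.18 to 78.3 ± 2.51 FPKM (SD, n = 2 each, log2 change 0.52). Only the small heat shock protein HSPB1 did not pass. A heat shock pair, GAANNTTC, was found once in the window before 1 of the 2 RefSeq starts of HSP90AA1 and not before the other, and 4.15% of windows of tested genes hold it.

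Proteasome subunits, which degrade ubiquitin-tagged proteins, rose too. Of 27 tested subunits 23 were higher and 0 lower, against 22.9% and 19.1% of all genes. Their median was 0.26. PSMB6, a catalytic subunit of the 20S core, stood at 78.3 and 70.4 FPKM in set 1 and 103.5 and 104 FPKM in set 2 (0.47, adjusted p = 0.000122). PSMD1, a scaffold of the 19S cap, rose from 48.3 ± 0.186 to 66.7 ± 0.296 FPKM (SD, n = 2 each, log2 change 0.46). PSMD11 and PSMB2 rose by 0.38 and 0.38. The summed level of the list went from 2027 FPKM in both set 1 libraries to 2391 and 2397 FPKM in set 2. In shNYNRIN 2 subunits were higher and 9 lower, against 18.6% and 20.7% of all genes there.

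NF-kB subunits and feedback targets were higher for 10 of 12 tested members and lower for 0, against 22.9% and 19.1% of all genes. Their median was 0.29. RELB, a subunit of the non-canonical pathway, stood at 7.87 and 7.86 FPKM in set 1 and 13.5 and 14.7 FPKM in set 2 (0.77, adjusted p = 4.44e-05). Its partner NFKB2 stood at 26.97 and 27.5 FPKM in set 1 and 44.5 and 44.5 FPKM in set 2 (0.69). The activation marker CD83 rose from 8.71 ± 0.458 to 13.7 ± 0.280 FPKM (SD, n = 2 each, log2 change 0.60), and the inhibitor NFKBIA, itself a target of the pathway, from 17.5 ± 0.112 to 24.7 ± 0.259 FPKM (SD, n = 2 each, log2 change 0.48). IL1B and NFKBIE did not pass. With a minimum of 30 FPKM only 2 members were tested, of which 1 was called higher.

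Of 12 interferon-stimulated genes tested, 2 were higher (16.7%, against 22.9% of all genes), BST2 among them, 1 was lower and 9 did not pass, with a median of 0.04. Without shCTL replicate 3 the higher count was 1, and with genes of at least 1 FPKM tested it was 6 of 27. With that lower filter, 1329 of all 12434 genes tested were called higher. Among MHC class I genes 3 of 4 were higher. B2M, the class I light chain, changed by 0.27 and the immunoproteasome subunit PSMB10 by 0.26.

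Of 36 DNA replication genes 21 were higher in set 2 and 2 were lower (CDT1 and POLE), against 22.9% and 19.1% of all genes. The other 13 did not pass, and the list median was 0.14. Without shCTL replicate 3 there were 13 higher, and without replicate 1, 2 or 3 there was 1 lower. MCM6, a subunit of the replicative helicase, stood at 63.7 and 63.7 FPKM in set 1 and 100.5 and 99.5 FPKM in set 2 (0.64, adjusted p = 4.20e-06). GINS1 and GINS4, which join that helicase, rose by 0.44 and 0.38. CDT1, which loads the helicase in G1, moved the other way, at 82.1 and 86.5 FPKM in set 1 and 61.5 and 61.2 FPKM in set 2 (-0.45).

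Of 28 mitosis genes 13 were higher and 0 lower, against 22.9% and 19.1% of all genes. The other 15 did not pass, and the list median was 0.11. CCNB1, the cyclin of mitotic entry, stood at 60.7 and 60.9 FPKM in set 1 and 76.5 and 73.3 FPKM in set 2 (0.30). The kinesin KIF20A rose by 0.27, the spindle protein DLGAP5 by 0.26 and CDC20, an activator of the anaphase-promoting ligase, by 0.21. PLK1, TOP2A and AURKB were among those 15.

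Ribosome biogenesis and polyamine genes were higher for 16 of 24 tested members and lower for 0, against 22.9% and 19.1% of all genes. Their median was 0.15. Spermidine synthase (SRM) stood at 62.8 and 63.6 FPKM in set 1 and 96.5 and 98.6 FPKM in set 2 (0.62, adjusted p = 5.10e-06). Ornithine decarboxylase (ODC1), the first enzyme of the same route, stood at 71.7 and 70.3 FPKM in set 1 and 103.5 and 102 FPKM in set 2 (0.53). The processing factors RRP12 and TSR1 rose by 0.29 and 0.27.

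Sterol genes were higher for 8 of 14 tested members, against 22.9% of all genes. Lower were 0 (1 with median centring), against 19.1% of all genes, and the list median was 0.20. MSMO1, a demethylase of cholesterol synthesis, stood at 14.05 and 12.3 FPKM in set 1 and 20.5 and 20.2 FPKM in set 2 (0.59, adjusted p = 0.000171). HMGCS1, which makes the precursor HMG-CoA, rose by 0.48 and the sterol carrier STARD4 by 0.34. With a minimum of 30 FPKM 1 of 7 tested sterol genes was called higher, against 673 of all 2281 genes tested. Among 9 fatty acid genes 5 were higher and 1 lower, with fatty acid synthase (FASN) at 0.36 and stearoyl-CoA desaturase (SCD) at 0.30. That count of 5 fell to 2 without shCTL replicate 3 and to 3 without replicate 1, 2 or 4.

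The remaining genes among the 10 largest rises belong to none of these lists. MZT1, a gamma-tubulin ring component, stood at 37.3 and 36.4 FPKM in set 1 and 67.5 and 63.1 FPKM in set 2 (0.81), and NAA15, a subunit of the N-terminal acetyltransferase NatA, at 14.6 and 14.8 FPKM in set 1 and 27.5 and 25.5 FPKM in set 2 (0.81). ENSG00000287430, which is named in the files by its identifier alone, stood at 9.40 and 9.09 FPKM in set 1 and 17.5 and 18.2 FPKM in set 2 (0.88). The small nucleolar RNA SNORD14E stood at 14.4 and 17.1 FPKM in set 1 and 24.5 and 29.1 FPKM in set 2 (0.73, SE 0.09). It lies within a host gene, so its reads may come from that host.

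Immediate early genes, transcribed within minutes of a growth signal, were lower in set 2. DUSP6, a phosphatase induced by ERK, stood at 16.8 and 17.03 FPKM in set 1 and 11.5 and 10.6 FPKM in set 2 (-0.57, adjusted p = 0.000121). The antiproliferative gene BTG2 stood at 134 and 136 FPKM in set 1 and 95.5 and 94.8 FPKM in set 2 (-0.50). FOS, a subunit of the transcription factor AP-1, stood at 124 and 129.9 FPKM in set 1 and 96.5 and 96.7 FPKM in set 2 (-0.39), and FOSB and the phosphatase DUSP5 changed by -0.20 and -0.32. Of 16 tested members 13 were lower, 1 (JUN) was higher and 2 did not pass, with a median of -0.23 and a background of 19.1% called lower. In shNYNRIN 9 of the 16 were higher and 2 lower, against 18.6% and 20.7% of all genes there.

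Genes of serine synthesis and the ATF4 response were lower for 11 of 18 tested members, with 1 higher (MTHFD2) and a median of -0.19. Over all genes 19.1% were called lower and 22.9% higher. PSAT1, a serine synthesis aminotransferase, stood at 59.5 and 56.1 FPKM in set 1 and 43.5 and 46.05 FPKM in set 2 (-0.36, adjusted p = 0.000312). SHMT2, which converts serine to glycine in mitochondria, stood at 102 and 106 FPKM in set 1 and 82.5 and 83.3 FPKM in set 2 (-0.32). The tRNA synthetase genes SARS1 and GARS1 fell by 0.30 and 0.28, and ATF4 was among the 11. In shNYNRIN the direction was the opposite, with 17 of the 18 higher and 0 lower, against 18.6% and 20.7% of all genes there.

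Ribosomal protein genes shifted together by a small amount. Of 69 tested, 52 were lower and 1 was higher, against 19.1% and 22.9% of all genes. The other 16 did not pass, and the list median was -0.10. RPL37 stood at 103 and 104 FPKM in set 1 and 85.5 and 87.6 FPKM in set 2 (-0.25, adjusted p = 0.000312), and RPS27 and RPL28 fell by 0.24 and 0.22. The exception was RPL17, at 21.01 and 20.96 FPKM in set 1 and 25.5 and 26.8 FPKM in set 2 (0.31). Ribosomal protein genes have many processed pseudogenes, so reads may be shared among copies. The count of 52 was 26 without shCTL replicate 3 and 31 without replicate 4 or without the mean-variance trend, and their summed level was 35578 and 36489 FPKM in set 1 and 33354 and 33471 FPKM in set 2.

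Stem and progenitor genes were lower for 12 of 19 tested members and higher for 0, against 19.1% and 22.9% of all genes. Their median was -0.16. MECOM, a zinc finger transcription factor of blood stem cells (chromosome 3, 169083499 to 169663618, minus strand), stood at 14.9 and 15.9 FPKM in set 1 and 9.50 and 9.49 FPKM in set 2 (-0.64, adjusted p = 6.76e-05). The stem cell factor receptor KIT stood at 30.2 and 28.5 FPKM in set 1 and 21.5 and 19.9 FPKM in set 2 (-0.49), the hyaluronan receptor CD44 at 16.5 and 18.1 FPKM in set 1 and 12.5 and 12.8 FPKM in set 2 (-0.42) and the transcription factor TAL1 at 121 and 121 FPKM in set 1 and 95.5 and 96.2 FPKM in set 2 (-0.33). GATA2, RUNX1 and MEIS1 did not pass. Among 11 genes of a published leukaemia stem cell score, which includes NYNRIN itself, 6 were lower and SMIM24 was higher (0.38), with MMRN1 at -0.36.

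Most tested progenitor and erythroid markers were lower. Of the 10 tested markers for KG-1a and CD34-positive progenitors 9 were lower, 0 higher, with a median of -0.24. Among all genes 19.1% were called lower and 22.9% higher. Of 8 erythroid markers 5 were lower (2 with each library truncated to whole numbers), and of 4 megakaryocyte markers only ITGA2B was. The megakaryocyte count was 0 without shCTL replicate 1 or 3 or with quantile normalization, and 2 without replicate 2 or with median centring. Both tested mast cell and basophil genes were lower, HDC and the carboxypeptidase CPA3, but only 1 was without shCTL replicate 1, 2 or 3. The T cell marker tested, CD4, did not pass. Summed over the list, the progenitor markers stood at 803 and 792 FPKM in set 1 and at 706 and 711 FPKM in set 2, the erythroid markers at 314 and 326 and at 271 and 293 FPKM, and the mast cell and basophil markers at 121.1 and 120.6 and at 106 and 105 FPKM. In bulk RNA fewer cells of a type and less RNA per cell cannot be told apart. Monocyte, neutrophil, dendritic, B and NK cell markers had no member at the level tested, and the part of any cell mixture in the gene changes was not tested.

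Iron and haem genes were lower for 9 of 17 tested members and higher for 3 (1 without shCTL replicate 3), with a median of -0.12. UROS, an enzyme of haem synthesis, stood at 37.2 and 36.8 FPKM in set 1 and 27.5 and 26.9 FPKM in set 2 (-0.43, adjusted p = 6.74e-05). The iron exporter SLC40A1 stood at 88.2 and 83.6 FPKM in set 1 and 64.5 and 62.6 FPKM in set 2 (-0.43), and the haem enzyme ALAD fell by 0.29. The transferrin receptor (TFRC) did not pass, at 0.04. By comparison, 22.9% of all genes were called higher and 19.1% lower.

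Redox genes split. Of 19 tested, 7 were higher (36.8%, against 22.9% of all genes) and 5 lower (26.3%, against 19.1%), with a median of 0.00. The metallothionein MT2A (0.38), mitochondrial superoxide dismutase (SOD2, 0.30) and the peroxiredoxin PRDX4 (0.28) rose, while GCLM, a regulator of glutathione synthesis, fell by 0.26. The count of 5 was 3 without shCTL replicate 1 or 2. TXNIP, an inhibitor of thioredoxin named in the title of the series, stood at 80.6 and 77.9 FPKM in set 1 and 97.5 and 95.4 FPKM in set 2, so the set 2 libraries lay above those of set 1 (0.28, adjusted p = 0.00025). NYNRIN itself was lower in set 2 of the controls (-0.22, adjusted p = 0.0107). Without shCTL replicate 2 the NYNRIN call was lost (-0.21, adjusted p = 0.0702, 0.00145 to 0.0702 over 15 alternatives).

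Of 34 respiratory chain genes tested, 3 were higher (8.82%, against 22.9% of all genes) and 6 lower (17.6%, against 19.1%). The lower count was 2 to 3 without shCTL replicate 2, 3 or 4, and the higher count was 0 without replicate 1 or 3 or with median centring or quantile normalization, and 1 without replicate 4. UQCRH, a complex III subunit, fell by 0.16, and COX6C of complex IV by 0.15. SDHB, the iron-sulphur subunit of complex II, had the largest fall of all, -1.29, but its set 2 replicates disagreed: it stood at 68.8 and 61.01 FPKM in set 1 and 45.5 and 14.5 FPKM in set 2. Without shCTL replicate 3 the SDHB change was -2.09 and without replicate 4 it was -0.50, and its call was lost without shCTL replicate 1 (-1.21) or 2 (-1.38), with an adjusted p of 0.000804 to 0.303 over 16 alternatives.

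The counts of this paragraph stand beside 22.9% of all genes called higher and 19.1% called lower. Both tested replication-coupled histone genes were lower, H2BC12 by 0.54 and the linker histone H1-2 by 0.24. Of 9 p53 targets the ferredoxin reductase FDXR fell by 0.36, GDF15 and BTG2 fell, and MDM2, the ubiquitin ligase for p53, rose by 0.21. That MDM2 call was lost without shCTL replicate 2 (0.17), 3 (0.22) or 4 (0.20). Of 24 actin and adhesion genes 4 were higher (2 without shCTL replicate 2 or 3) and 10 lower, with the adhesion molecules PECAM1 and SELPLG at -0.28 and -0.26. Of 11 small nucleolar RNA hosts 2 were higher (1 without shCTL replicate 1, 2 or 4) and 5 lower, with SNHG7 at -0.43 and SNHG8 at -0.34. The nuclear-retained RNA NEAT1 fell by 0.32. Of 9 BCL2 family genes 1 was higher (0 without shCTL replicate 3) and 1 lower.

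CD24, a surface sialoglycoprotein (chromosome 6, 106969831 to 106975627, minus strand), had the next largest fall after SDHB. It stood at 26.5 and 28.2 FPKM in set 1 and 11.5 and 9.95 FPKM in set 2, each set 1 library more than 2-fold above each set 2 library (-1.28, SE 0.067, adjusted p = 5.42e-06). GDF15, a stress-induced cytokine, stood at 15.9 and 17.9 FPKM in set 1 and 9.50 and 8.36 FPKM in set 2 (-0.85).

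The apelin receptor APLNR stood at 13.4 and 13.98 FPKM in set 1 and 7.50 and 7.47 FPKM in set 2 (-0.79), and PLEKHA7, an adherens junction protein, at 15.6 and 15.2 FPKM in set 1 and 8.50 and 8.13 FPKM in set 2 (-0.81). CFAP161, a cilia-associated gene, stood at 119 and 117 FPKM in set 1 and 66.5 and 70.4 FPKM in set 2 (-0.78), and KIAA0040 fell by 0.83. Also among the 10 largest falls were ENSG00000285933, a long non-coding RNA gene on chromosome 11 (-0.94), and ENSG00000290042 (-1.002), named in the files by its identifier alone. The shCTL libraries of the sets did not overlap for any of the 10, which the rule for naming them required.

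Genes often used as internal references were not all stable in the controls. Of 14 measured, 6 were higher in set 2 (42.9%, against 22.9% of all genes), 3 were lower (21.4%, against 19.1%) and 5 did not pass. Among those higher, PGK1 stood at 129 and 126 FPKM in set 1 and 159.5 and 157 FPKM in set 2 (0.31, adjusted p = 6.93e-05), and the changes were 0.30 for the purine salvage enzyme HPRT1, 0.27 for B2M, 0.13 for GAPDH and 0.08 for the signalling adaptor YWHAZ. RPLP0 and EEF1A1 were among those that fell. The cyclophilin PPIA (0.02), the TATA-binding protein TBP (0.06), the glucuronidase GUSB (0.00), TFRC (0.04) and ACTB (0.05) did not pass, of which GUSB changed sign with the scaling (-0.019 with quantile normalization) and TBP without shCTL replicate 1 (-0.0045). The YWHAZ call was lost without any 1 shCTL library (0.069 to 0.087) and with each other scaling (0.059 to 0.075).

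To ask whether the drift between the tables was shared by cells with the other hairpin, the same difference was taken in the shNYNRIN libraries. The log2 changes of the 2 hairpins share no library. The calls are not independent, as genes were chosen by shCTL level and the spread was estimated over all 8 libraries. In shNYNRIN 2295 of 5842 genes (39.3%) passed, 1086 higher and 1209 lower in set 2. That balance turned with upper-quartile scaling (1206 higher, 1067 lower) and median centring (1194 and 1108). Of the 1339 genes higher in shCTL, 174 (13%) were also higher in shNYNRIN and 410 (30.6%) were lower, where 18.6% of all genes were called higher and 20.7% lower. Of the 1113 genes lower in shCTL, 182 (16.4%) were lower in shNYNRIN and 341 (30.6%) were higher. The median shNYNRIN change was -0.047 over the genes that rose in shCTL and 0.044 over those that fell. Opposite calls thus outnumbered shared ones in both directions.

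Library names in the labels number the shCTL libraries of set 1 as 3 and 4 and those of set 2 as 1 and 2, whereas shNYNRIN libraries are 1 and 2 in set 1 and 3 and 4 in set 2. Ordered by library-name number instead of by table, the sign of 1 of the 2 differences turns, so that the 410 and 341 genes count as moving the same way and the 174 and 182 as moving oppositely. Whether that number marks a shared culture or preparation is not stated in these sources.

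The 2 set differences were then compared directly in a model of all 8 libraries. They differed for 2749 of 5842 genes (47.1%), with the shCTL difference the higher for 1508 and the lower for 1241 (1279 and 1439 with median centring). BNIP3 stood at 27.5 and 28.9 FPKM in set 1 and 25.2 and 24.7 FPKM in set 2 in shNYNRIN (-0.17), against 1.18 in shCTL, a difference of 1.35 (adjusted p = 3.03e-07). HSPA5 stood at 85.7 and 84.4 FPKM in set 1 and 79.7 and 80.4 FPKM in set 2 in shNYNRIN (-0.09, difference 0.82). NFKB2 stood at 31.3 and 31.3 FPKM in set 1 and 30.3 and 30.97 FPKM in set 2 (difference 0.72). For these 3 genes both shCTL libraries of set 2 lay above the other 6 libraries, as they did for 936 of all genes (16%), and the 3 were picked as examples after their values were seen.

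Other genes moved in both hairpins in opposite directions. FOS stood at 87.4 and 84.3 FPKM in set 1 and 188 and 188 FPKM in set 2 in shNYNRIN, a change of 1.12 against -0.39 in shCTL (difference -1.51, adjusted p = 2.65e-08). PSAT1 stood at 32.7 and 33.7 FPKM in set 1 and 69.2 and 69.2 FPKM in set 2 (1.04, difference -1.40). The retinaldehyde dehydrogenase ALDH1A1, at 58.4 and 56.3 FPKM in set 1 and 35.5 and 35.03 FPKM in set 2 in shCTL, stood at 43.5 and 43.3 FPKM in set 1 and 86.6 and 88.5 FPKM in set 2 in shNYNRIN (difference -1.68). RAC1, a small GTPase of the actin cytoskeleton, stood at 26.9 and 29.2 FPKM in set 1 and 45.5 and 46.2 FPKM in set 2 in shCTL and at 45.97 and 44.95 FPKM in set 1 and 27.1 and 26.5 FPKM in set 2 in shNYNRIN (difference 1.43). 

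For other genes the change lay mainly in shNYNRIN or in both hairpins. NDUFA1, a complex I subunit, stood at 117 and 113 FPKM in set 1 and 107.5 and 108 FPKM in set 2 in shCTL and at 118 and 113 FPKM in set 1 and 31.4 and 34.1 FPKM in set 2 in shNYNRIN (difference 1.70), and its small shCTL change of -0.09 lost its call without shCTL replicate 1 (-0.069), 3 (-0.092) or 4 (-0.096). MT2A stood at 42.3 and 39.9 FPKM in set 1 and 17.99 and 19.5 FPKM in set 2 in shNYNRIN (difference 1.47). CD24 fell in both, and stood at 33.8 and 33.6 FPKM in set 1 and 18.04 and 17.3 FPKM in set 2 in shNYNRIN (-0.90, difference -0.38, adjusted p = 0.00497). BTG2 fell by 0.50 in shCTL and had a change of -0.53 in shNYNRIN, with no difference past the threshold (0.03, adjusted p = 0.619), and SNORD14E likewise had 0.73 and 0.76 (difference -0.03).

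By lists, the change was higher in shCTL for 13 of 14 cytosolic chaperones. It was higher for 20 of 27 proteasome subunits, 12 of 15 endoplasmic reticulum chaperones, 16 of 24 glycolysis and hypoxia genes and 27 of 36 replication genes, against 1508 of 5842 over all genes. On the other side stood 15 of 18 ATF4 and serine genes, 11 of 16 immediate early genes and 15 of 19 stem and progenitor genes, against 1241 of 5842. Among 14 cholesterol genes the shCTL change was the higher for 4 and the lower for 1.

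**Figure D4:**
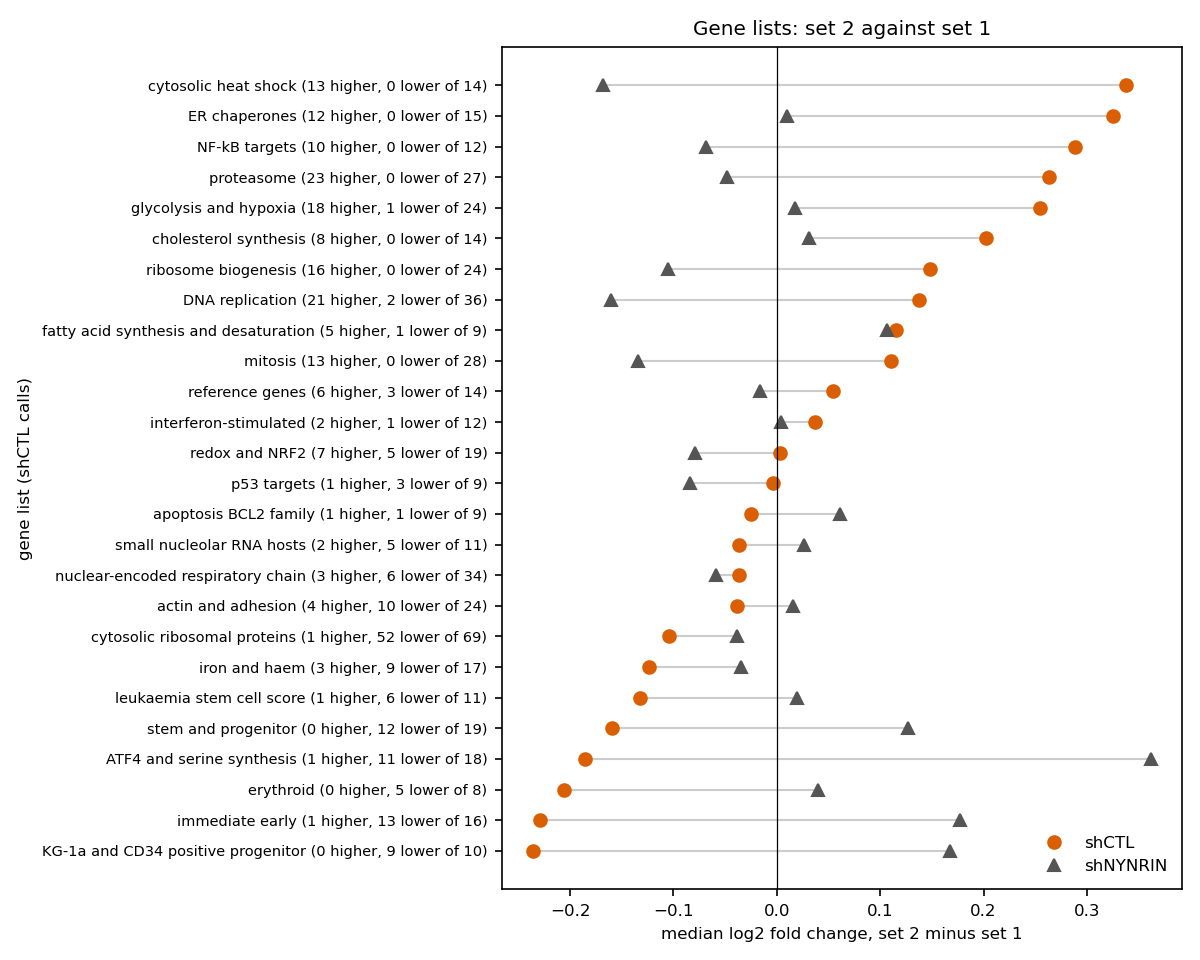
Median log2 fold change of set 2 against set 1 for each gene list with at least 8 tested genes (1 row per list), as circles for shCTL and triangles for shNYNRIN, with the shCTL calls in the row names. Cytosolic heat shock genes have medians of 0.34 and -0.17, and ATF4 and serine genes -0.19 and 0.36.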

How the data were processed

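RNA-seq values of 13068 genes listed in both deposited tables were used, and 5842 with a mean of at least 10 FPKM over the 4 shCTL libraries were tested. The unit is taken as FPKM, as deposited by the authors, from the values and from the tools that the submitters' processing notes name: Bowtie 0.12.9, Cufflinks 2.1.1 and HTSeq. The notes list the builds hg38 and mm10 with no role for either. FPKM divides by gene length and library total, so a few dominant genes can shift the rest. In the table of set 1 a value of 0.001 stands for 0. The authors deposited 1 library, shCTL replicate 3, as whole numbers (recorded as a score); over 3537 genes their median difference from replicate 4 is -0.5003, so 0.5 was added. Per the file headers, the table of set 1 also holds the authors' own log2 fold changes, p-values and q-values and a mean normalized signal over its libraries, made by steps that are not stated; none of these enters a result.

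Log2(FPKM + 1) was fitted with limma 3.58.1 in R 4.3.3 (mean-variance trend, two-sided, Benjamini-Hochberg over all tested genes), with 4 libraries (2 residual degrees of freedom) for shCTL and 8 (4 residual) for shNYNRIN and the difference. The fit was tested on simulated data. The tables were deposited separately, and other scalings, pseudocounts, filters and leaving out libraries were tried. Members and lists were chosen with earlier results of these data known. Named genes are the 10 most abundant, NYNRIN and TXNIP, the 10 largest rises and falls without overlap, up to 4 passing members of a list (at most 2 where fewer than 3 pass), all reference genes and the 5 largest differences between hairpins in each direction. Some genes that this rule names are not reported here. Members named without values were chosen after their values were seen. No gene encoded by mitochondrial DNA was listed in both tables.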

Additional observations from a re-analysis of the deposited data

Results flagged for a closer look

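The change between the sets differed between shCTL and shNYNRIN, by a test of that difference with limma on all 8 libraries, for 2749 of 5842 genes and for 97 of the 111 genes described here (87.4%). For 73 of the 97 the 2 hairpins had opposite signs. These genes include those with the largest differences between hairpins and the largest changes in shCTL, so both shares were largely set by how the genes were chosen. Values below are the log2 change in shCTL minus the log2 change in shNYNRIN, with Benjamini-Hochberg adjusted p under 0.05 for each, and a positive value means a higher change in shCTL.

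Among glycolysis and chaperone genes the values were BNIP3 (1.35), PFKFB4 (1.47), P4HA1 (1.16), ENO2 (0.65), PGK1 (0.36), GAPDH (0.12), HSPA5 (0.82), SDF2L1 (0.81), HSP90B1 (0.54), CALR (0.47), HSPH1 (1.18), HSP90AA1 (0.80), HSP90AB1 (0.25), DNAJA1 (0.80) and AHSA1 (0.70). For proteasome, NF-kB and antigen presentation genes they were PSMB6 (0.52), PSMD1 (0.66), PSMD11 (0.48), PSMB2 (0.49), RELB (0.72), NFKB2 (0.72), CD83 (1.16), NFKBIA (0.53), B2M (0.45) and PSMB10 (0.31). Replication, mitosis and histone genes gave MCM6 (0.97), GINS1 (0.92), GINS4 (0.56), CDT1 (-0.41), CCNB1 (0.56), KIF20A (0.58), CDC20 (0.64), DLGAP5 (0.41), H2BC12 (-0.56) and H1-2 (-0.32). Ribosome biogenesis and polyamine genes gave SRM (0.75), ODC1 (0.77), RRP12 (0.29) and TSR1 (0.50), and lipid genes gave MSMO1 (0.93), STARD4 (0.33), FASN (0.19) and SCD (0.47).

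For translation genes the values were EEF1A1 (-0.17), RPL41 (-0.14), RPL3 (-0.13), RPL8 (0.35), RPLP0 (-0.13), RPL17 (0.43), RPL37 (-0.20), RPS27 (-0.40) and RPL28 (-0.21). Immediate early genes had DUSP6 (-1.08), FOS (-1.51), FOSB (-1.49) and DUSP5 (-0.30), and serine and tRNA synthetase genes had PSAT1 (-1.40), SHMT2 (-0.66), SARS1 (-0.48) and GARS1 (-0.74). Stem, progenitor and score genes had MECOM (-0.85), KIT (-0.28), CD44 (-0.79), TAL1 (-0.38), SMIM24 (0.63) and MMRN1 (-0.66), and iron and haem genes had UROS (-0.66), SLC40A1 (-0.75), ALAD (-0.35) and TFRC (0.23). The target and title genes NYNRIN and TXNIP had 0.86 and 0.73.

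The other genes with such a difference were ENSG00000287430 (0.75), MZT1 (1.04), NAA15 (1.01), CD24 (-0.38), ENSG00000290042 (-1.70), ENSG00000285933 (-1.04), GDF15 (-0.79), KIAA0040 (-0.97), PLEKHA7 (-1.10), APLNR (-0.98), CFAP161 (-1.40), HPRT1 (0.17), PECAM1 (-0.29), SELPLG (-0.64), SNHG7 (-0.48), SNHG8 (-0.37), MT2A (1.47), NDUFA1 (1.70), RAC1 (1.43), ALDH1A1 (-1.68), UQCRH (-0.10), PRDX4 (0.28), SOD2 (0.50), FDXR (-0.23) and MDM2 (0.29).

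TBP, a reference gene, had 1 shCTL library apart from the other 3: it stood at 21.4 FPKM in replicate 1 and at 23.6, 23.5 and 23.6 FPKM in replicates 2 to 4, so that the gap was 0.951 of the range, above Dixon's 95% critical value for 4 samples. Chance gives about 1 such gene in 20, and 177 of the 5842 tested genes (3.03%) had one.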

How the results depend on the processing

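The count of genes past the threshold between the shCTL sets was 2452, and it was 2223 to 2615 with other scalings, pseudocounts, a minimum of 1 FPKM, no filter, no 0.5 added, no mean-variance trend or all 8 libraries fitted together. It was 1261 with a minimum of 30 FPKM, which leaves 2281 genes to test, and 1448 with each library truncated to whole numbers. Leaving out 1 shCTL library gave 1621 to 1786, the lowest without replicate 3, and 1233 genes were called in all 5 fits. For shNYNRIN (2295) the count was 1088 with a minimum of 30 FPKM and 1481 to 2100 without 1 library, the lowest without replicate 4. For the difference between the hairpins (2749) it was 1308 with that minimum and 2188 to 2659 without 1 library. A set with 1 library left is assumed to vary like the other set. The replicate number in the titles lies within a set. With it as a replicate block the difference count was 2533, and same-numbered samples did not deviate together (correlations of -0.040 and -0.064), so the numbers were not taken as pairs. The median change over all genes was 0.02, and median centring of the libraries does not force it to 0.

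Of 1728 recomputed values of single genes, 1650 kept their direction and side of the threshold, 68 lost the call and 10 changed sign. With each library truncated 19 genes lost their call, and 12 did in another alternative. All 10 sign changes are of small values. RPS6 changed to 0.0040 without shCTL replicate 2 and to 0.024 without 4. RPL4 changed to 0.031 with quantile normalization, and TBP to -0.0045 without replicate 1. GUSB changed to -0.019, -0.0025 and -0.018 with quantile, upper-quartile and median scaling, and to -0.012 with no 0.5 added. Without replicates 1 and 4 GUSB changed to -0.047 and -0.025. Values that kept the sign reached -0.032 for RPS6 (without replicate 3), and 0.13 for TBP and 0.048 for GUSB (without 2). Beyond the scatter between replicates of a set, list medians changed sign for 3 lists of at most 4 tested genes. That of MondoA targets became 0.056 at 30 FPKM, 0.0040 truncated, and 0.054 and 0.0091 without replicates 1 and 4. Without replicate 2 it kept its sign (-0.083). MHC class II became -0.031 with no filter, and nuclear-retained RNA 0.035 at 1 or 30 FPKM and with no filter. Sign changes were not counted where the median or its shift lay within that scatter. The cause was not tested. Counts of list members under each alternative were added after the data were seen. With each library truncated several of them were lower by over 1.5-fold, among counts of at least 5. Counts of higher members fell for DNA replication (to 10), mitosis (6), ribosome biogenesis (8), NF-kB (6), cholesterol (5) and fatty acid genes (3). Counts of lower members fell for immediate early (to 6), ribosomal proteins (20), erythroid markers (2), respiratory chain (3) and redox (2). That of small nucleolar RNA hosts fell to 3. Read depth of single libraries is unknown, so what depth limits could not be computed.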
